A study of Mus musculus with 12 samples.

Results

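Glycolysis was followed here through 10 genes that encode isozymes of 5 of its steps: Hk1 and Hk2 (hexokinase), Pfkl, Pfkm and Pfkp (phosphofructokinase), Aldoa and Aldoc (aldolase), Eno1 and Eno2 (enolase) and Pkm (pyruvate kinase). The genes were chosen by symbol, and all 10 were among the 56748 genes of the deposited table, under 11 rows because the symbol Aldoa is listed for a pair of identifiers. The row with nearly all of the Aldoa signal (ENSMUSG00000030695) was used, and the other row held at most 0.422% of its value in any library.

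RNA was sequenced in 12 libraries from 2-week-old littermate mice, with 3 libraries in each of 4 groups. The control mice (Het) were RiboTag;Shp2 fl/+;i75-Rod-Cre and the knockout mice (KO) were RiboTag;Shp2 fl/fl;i75-Rod-Cre, so that every mouse carried the RiboTag allele, the Cre and at least 1 floxed copy of Shp2, and the control rods can lose 1 copy too. The sample titles call the controls wt, while their genotype is given as heterozygous. Cre was driven by a rod-specific promoter, and it switched on an HA-tagged ribosomal protein Rpl22 in rods. For each genotype, RNA was taken from the polysomes pulled down with an HA antibody (rod TRAP, translating ribosome affinity purification) and from the whole retina lysate. Values called those of rods below are values of rod TRAP. Rod TRAP and whole retina libraries differ in cell type and in ribosome binding together, so these cannot be told apart. The source records do not tie a library to an animal, so p-values measure the spread between these libraries.

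Hexokinase, phosphofructokinase and pyruvate kinase catalyse the steps of glycolysis that are in effect irreversible in the cell, and each is encoded by a small family of genes with tissue-biased members. The retina is known for making lactate from glucose even when oxygen is present, and photoreceptors carry much of that flux. Hk2 and the M2 splice form of Pkm are the isozymes best known in photoreceptors, whereas Hk1, Pfkm and Eno2 are widely used in neurons.

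The table holds 1 whole number per gene and library, referred to here as the scaled read count, because the totals of the libraries were made nearly equal before deposit (16263948 to 16265259 in the rod libraries and 14525527 to 14527992 in the whole retina libraries). The spacing of the low values gave an estimate of 11900000 to 25300000 reads for the 6 rod libraries and of 10000000 to 19200000 for 5 of the 6 whole retina libraries. The lowest value of any member was 260, for Pfkm in a KO rod library. The 10 rod markers made up 15.5% to 18.3% of the rod TRAP signal and 5.11% to 6.51% of the retina signal, and all 10 were called higher in rods in both genotypes. The markers of Müller glia, whose summed share was 0.320% to 0.473% in the retina, made up 0.00974% to 0.0184% in the rod libraries, and all 8 were called lower there in both genotypes. Other cell types were depleted less. Cone markers made up 0.0288% to 0.0467% in rods and 0.0953% to 0.113% in retina, with all 8 called lower in both genotypes. Bipolar markers made up 0.0214% to 0.0329% in rods and 0.0992% to 0.108% in retina, with 6 of 7 called lower in both genotypes. Transcripts of the mitochondrial genome made up 0.0467% to 0.0881% in rods and 5.52% to 9.88% in retina. Ptpn11, which encodes Shp2, had values of 2511, 2439 and 2431 in the Het rods and of 1735, 2139 and 1971 in the KO rods. Every KO rod library was below every Het rod library, but the difference was not called (log2 fold change −0.26, SE 0.09, adjusted p = 0.0637, limma), and a value over the whole gene also holds reads from outside the deleted stretch.

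A second property of the libraries touches all that follows. The level of genes with GC-rich transcripts, relative to GC-poor ones, differed between libraries of the same group. The median log2 level of the 10% of genes highest in GC content, less that of the 10% lowest, was −0.81, −0.23 and −0.42 in the Het rod libraries and 0.42, 0.76 and 0.28 in the KO rod libraries. The groups of rod libraries therefore did not overlap in this measure. In the retina it was −0.24, 0.86 and −0.83 in the Het libraries and 0.01, −0.63 and 0.90 in the KO libraries, so that the genotypes overlapped there. Pkm (57.7% GC), Eno1 (57.4%), Pfkl (57.1%), Aldoa (56.9%) and Hk1 (56.4%) have the GC-richest transcripts of the list, followed by Eno2 (54.8%), Pfkm (54.7%), Hk2 and Aldoc (both 51.9%) and Pfkp (48.9%). Values are as scaled unless the GC trend of each library is said to be subtracted.

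**Figure D1:**
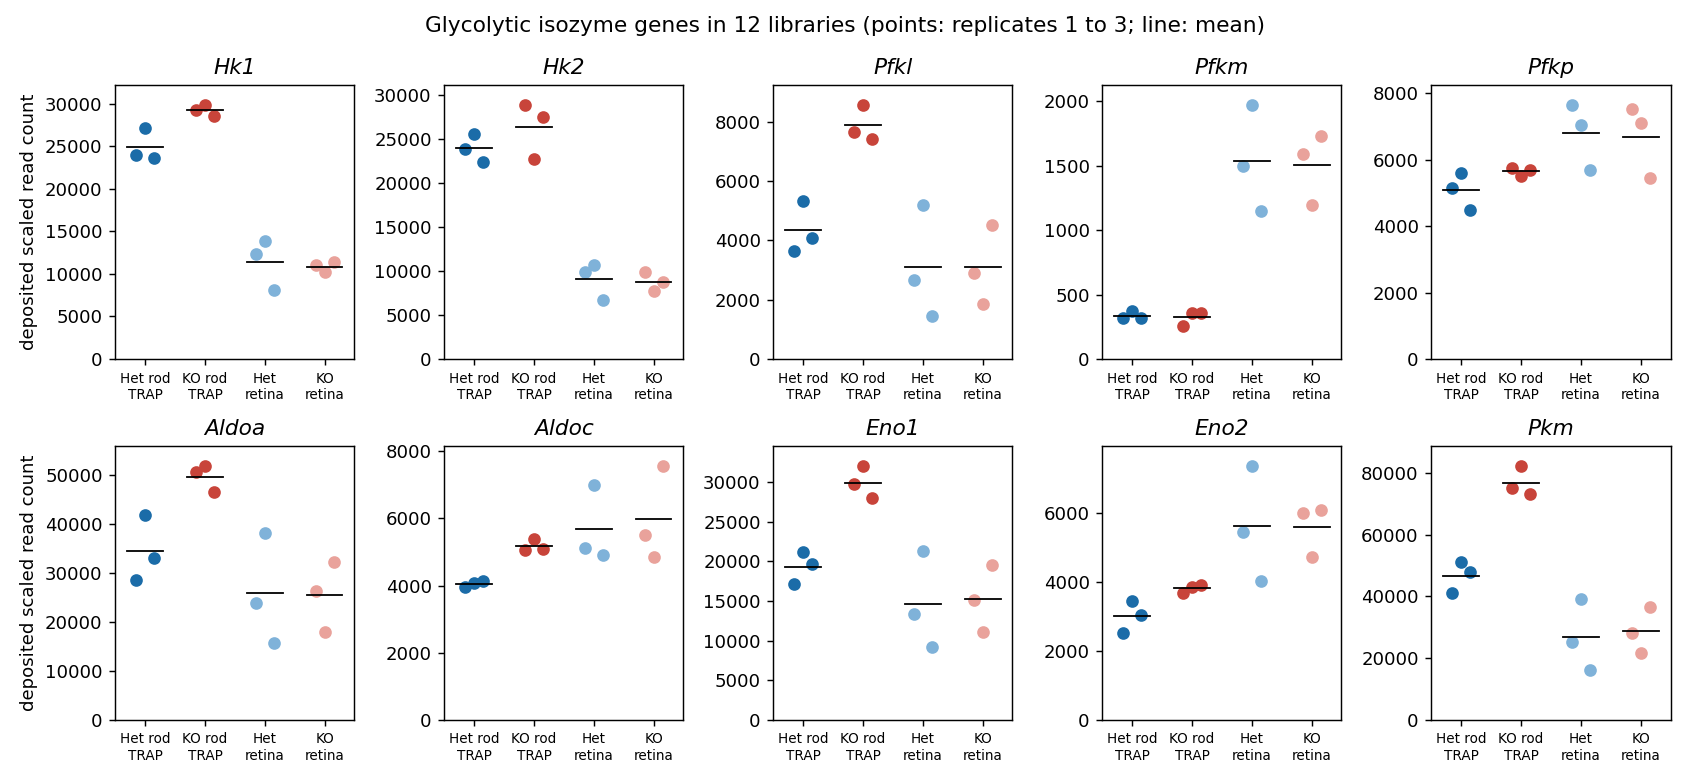
Scaled read counts of the 10 genes (vertical axis, linear from 0) in the 12 libraries, with a point for each replicate and a line at the mean of each group. Hk1 and Hk2 were higher in all 6 rod TRAP libraries than in all 6 retina libraries, Pfkm was lower in all 6, and Pfkl, Aldoa, Eno1 and Pkm were higher in every KO rod library than in every Het rod library.

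Hk1 and Hk2 were both higher in rods than in whole retina. Hk2, the isozyme linked to aerobic glycolysis, had values of 23781, 25504 and 22399 in Het rods, 28789, 22707 and 27420 in KO rods, 9919, 10652 and 6750 in Het retina and 9846, 7666 and 8690 in KO retina. No rod library overlapped a retina library. Such separation was common. Once scaled, the rod and retina libraries of a genotype did not overlap for 71.6% of 16110 genes in Het and 72.5% of 16121 in KO. Of the members, 5 lay above and 1 below in Het, and 6 above and 1 below in KO. The log2 fold change of Hk2 between Het rods and Het retina was 1.67 (SE 0.17, adjusted p = 4.07e-05), which is 3.18-fold, and between KO rods and KO retina it was 1.96 (SE 0.14, adjusted p = 5.59e-06). Hk1, the widely expressed hexokinase that binds mitochondria, had values of 23985, 27145 and 23610 in Het rods, 29236, 29818 and 28586 in KO rods, 12296, 13893 and 8066 in Het retina and 11010, 10206 and 11389 in KO retina. It was 2.66-fold higher in Het rods than in Het retina (SE 0.19 on the log2 scale, adjusted p = 0.000225) and 3.49-fold higher in KO rods than in KO retina (SE 0.11, adjusted p = 2.37e-06).

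Per kilobase of the longest annotated transcript, Hk1 was above Hk2 in all 12 libraries. Hk2 made up 42.7% ± 0.70 (SD, n = 3) of the hexokinase signal per length in Het rods, 41.0% ± 3.39 in KO rods, 38.4% ± 1.04 in Het retina and 38.3% ± 2.29 in KO retina. The ratio of Hk2 to Hk1 within a library was 0.21 higher in rods on the log2 scale (exact two-sided permutation test within genotypes, p = 0.03, 0.06 after Benjamini-Hochberg adjustment over the 12 ratio tests), so it did not pass the correction. With the GC trend subtracted the difference was 0.10 (exact permutation p = 0.415), and without KO rod replicate 1 or 3 or KO retina replicate 2 or 3 the exact permutation p lay between 0.055 and 0.075. The order of these genes depends on the length used, since dividing by all exons of a gene put Hk2 above Hk1, by 0.41 on the log2 scale in rods and 0.20 in retina. Of the other hexokinase genes, Hk3 was listed at 0 in all 6 rod libraries and Hkdc1 at 0 to 7, against 32 to 66 for Hkdc1 in the retina libraries.

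The promoter windows of 4 members are shown because each of these genes has 1 start in the RefSeq table and they cover the patterns seen here, with Hk2 and Pfkl called higher in rods in at least 1 genotype, Pfkp called in neither and Eno2 called lower in Het rods. Each window runs from 250 bases before the start to 50 after it, 5′ to 3′ on the strand of the gene, in the RefSeq build GRCm38.p6, which is not the GRCm39 named in the submitters' processing notes. Capitals mark matches on either strand to GGGCGG (the GC box bound by Sp1), TAATCC (the core bound by the photoreceptor factor CRX) and ACGTG (the core bound by hypoxia-inducible factors, which also lies inside the E-box CACGTG).

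Hk2 (minus strand, chr6:82774405-82774704): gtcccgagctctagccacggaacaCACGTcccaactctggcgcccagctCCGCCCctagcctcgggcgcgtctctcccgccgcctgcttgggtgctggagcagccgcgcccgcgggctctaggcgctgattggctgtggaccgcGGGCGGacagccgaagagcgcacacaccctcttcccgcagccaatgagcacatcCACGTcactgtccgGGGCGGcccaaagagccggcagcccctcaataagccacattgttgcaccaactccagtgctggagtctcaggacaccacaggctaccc

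Pfkl (minus strand, chr10:78009758-78010057): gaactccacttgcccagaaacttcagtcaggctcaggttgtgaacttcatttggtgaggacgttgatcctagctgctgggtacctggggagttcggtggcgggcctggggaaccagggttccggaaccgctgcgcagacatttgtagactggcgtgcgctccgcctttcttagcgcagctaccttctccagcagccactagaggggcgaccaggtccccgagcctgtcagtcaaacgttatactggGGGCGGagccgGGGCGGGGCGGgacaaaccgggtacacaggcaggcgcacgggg

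Pfkp (minus strand, chr13:6648722-6649021): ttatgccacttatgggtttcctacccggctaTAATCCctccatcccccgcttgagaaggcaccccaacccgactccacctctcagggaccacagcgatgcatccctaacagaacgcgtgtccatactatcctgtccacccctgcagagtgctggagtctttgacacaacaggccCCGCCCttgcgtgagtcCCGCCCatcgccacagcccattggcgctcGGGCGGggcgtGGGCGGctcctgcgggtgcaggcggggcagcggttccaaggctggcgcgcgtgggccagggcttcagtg

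Eno2 (minus strand, chr6:124769624-124769923): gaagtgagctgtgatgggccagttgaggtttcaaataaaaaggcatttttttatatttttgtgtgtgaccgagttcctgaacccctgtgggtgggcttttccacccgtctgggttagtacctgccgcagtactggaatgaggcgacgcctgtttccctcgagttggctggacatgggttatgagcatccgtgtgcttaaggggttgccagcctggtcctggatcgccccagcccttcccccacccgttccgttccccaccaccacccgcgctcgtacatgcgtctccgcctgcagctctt

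Over the 20 windows of all 10 genes, several of which overlap at alternative starts, GGGCGG was found in 9 (in 7 of the 10 genes) against 35.7% of the 32851 windows in the table. ACGTG was found in 8 windows (6 genes) against 19.6% of all windows, TAATCC in 3 (Aldoc, Pfkm and Pfkp) against 7.06%, and CACGTG in 1 (Pfkm) against 7.15%. Among the windows printed above, Hk2, Pfkl and Pfkp hold the GC box, Hk2 holds ACGTG and Pfkp holds TAATCC, and Eno2 holds none of these letters. A match is a description of the letters only.

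Phosphofructokinase, the main control point of the pathway, showed the widest difference in isozyme make-up between fractions. Pfkm, the muscle isozyme, had values of 316, 369 and 315 in Het rods, against 1499, 1968 and 1149 in Het retina. In KO it had 260, 356 and 355 in rods, against 1587, 1192 and 1730 in retina. Every rod library was below every retina library, and the log2 fold change was −1.92 (SE 0.20, adjusted p = 4.53e-05) in Het and −1.83 (SE 0.19, adjusted p = 3.69e-05) in KO. Pfkl, the liver isozyme, had values of 3628, 5343 and 4071 in Het rods, 7669, 8556 and 7422 in KO rods, 2665, 5199 and 1462 in Het retina and 2916, 1868 and 4513 in KO retina. The Het groups overlapped, through the retina library of replicate 2, which had the highest GC trend of the Het libraries. The log2 fold change of Pfkl was 0.90 in Het (SE 0.40, adjusted p = 0.0766) and 1.81 in KO (SE 0.28, adjusted p = 0.000479).

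Same-numbered rod and retina libraries deviated together in Het, though no record says that they share an animal. With the replicate number as a block, Pfkl was called in Het as well (adjusted p = 0.0105, limma). Without Het retina replicate 2 its log2 fold change was 1.40 (adjusted p = 0.00243), and with the GC trend subtracted it was 1.23 (adjusted p = 0.00521). Pfkp, the platelet isozyme, had values of 5159, 5606 and 4489 in Het rods, 5754, 5503 and 5695 in KO rods, 7643, 7062 and 5684 in Het retina and 7531, 7096 and 5438 in KO retina, with log2 fold changes of −0.16 (SE 0.14, adjusted p = 0.335) and 0.14 (SE 0.13, adjusted p = 0.336).

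Because a ratio of isozymes within a library does not depend on the scaling between libraries, the ratios were tested as well. The ratio of Pfkl to Pfkm was 9.39-fold higher in rods than in retina (3.23 on the log2 scale, 2.82 in Het and 3.64 in KO), and that of Pfkp to Pfkm was 3.65-fold higher (1.87 on the log2 scale). In both genotypes, each rod library was above each retina library for both ratios, with exact permutation p = 0.005 for each, the smallest the design allows (0.015 after adjustment). The ratio of Pfkp to Pfkl was lower in rods by 1.37 on the log2 scale (exact permutation p = 0.01, 0.024 after adjustment), though in Het the fractions overlapped in it as scaled. With the GC trend subtracted these 3 differences were 3.43, 1.86 and −1.56 (exact permutation p = 0.005 each), with no overlap of fractions in either genotype.

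Pfkm accounted for 6.24% ± 0.38 of the phosphofructokinase signal per kilobase in Het rods and 3.91% ± 0.63 in KO rods, but for 25.3% ± 2.06 in Het retina and 24.5% ± 0.58 in KO retina (SD, n = 3 each). Pfkl accounted for 62.2% ± 3.66 in Het rods and 73.4% ± 1.67 in KO rods, against 36.4% ± 10.8 and 38.0% ± 10.6 in the retina of the same genotypes. The longest annotated transcript of Pfkp is a retained-intron form of 8681 bases, and this length set its share at 31.6% in Het rods. With the longest protein-coding transcript of 4145 bases, Pfkp reached 49.1% ± 3.82 and Pfkl 46.3% ± 3.92 in Het rods, and the order of these isozymes differed between the 3 Het libraries. In the KO rods Pfkl was above Pfkp with either length, at 58.8% ± 2.17 with the coding transcript. Pfkm was the lowest of the 3 in all 6 rod libraries with either length. In the retina the coding transcript put Pfkp highest in every library, at 56.1% ± 9.74 in Het and 55.0% ± 11.8 in KO. Pfkl was then at 26.1% ± 9.69 and 27.5% ± 10.1, and Pfkm at 17.8% ± 0.81 and 17.5% ± 1.74. In rods Pfkm was at 4.64% ± 0.21 in Het and 3.13% ± 0.51 in KO with that length.

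**Figure D2:**
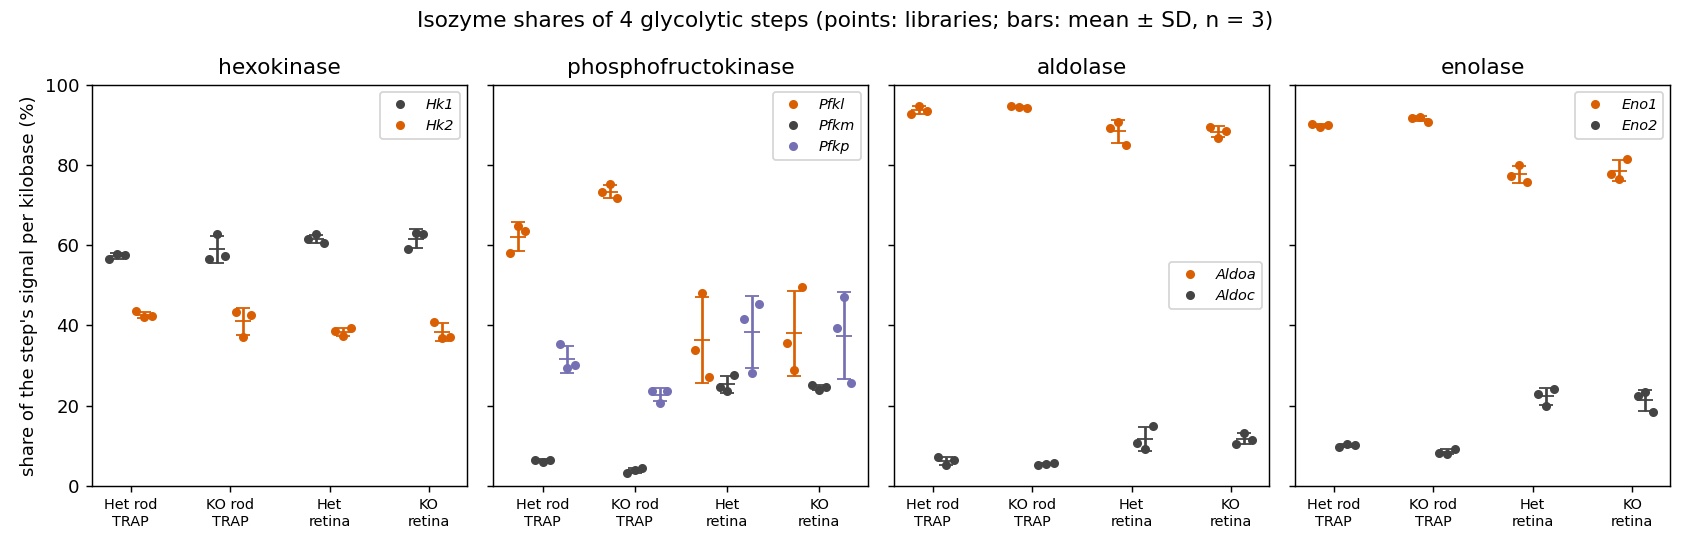
Share of each isozyme in the summed signal per kilobase of its step (vertical axis, percent), by group, with a point for each library and bars at the mean ± SD of 3. The length is that of the longest annotated transcript, which for Pfkp is the retained-intron form. Pfkm made up 3.21% to 6.55% of phosphofructokinase in the rod libraries and 23.6% to 27.6% in the retina libraries, and Eno2 made up 8.01% to 10.5% of enolase in rods and 18.4% to 24.2% in retina.

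Aldoa, the ubiquitous aldolase, outnumbered Aldoc, the brain isozyme, in all 12 libraries. Aldoa values were 28460, 41788 and 33029 in Het rods, 50575, 51826 and 46558 in KO rods, 23845, 38220 and 15583 in Het retina and 26238, 17839 and 32245 in KO retina. Once scaled, the Het rods stood above the Het retina in every library, and the log2 fold change was 0.74 (SE 0.30, adjusted p = 0.058). It was called with the replicate block (adjusted p = 0.00654), with the GC trend subtracted (1.05, adjusted p = 0.00014), without Het retina replicate 2 (1.10, adjusted p = 0.000852) or 3 (0.53, adjusted p = 0.0452), and in KO (log2 fold change 1.38, SE 0.21, adjusted p = 0.000392). Aldoc values were 3948, 4086 and 4127 in Het rods, 5068, 5392 and 5099 in KO rods, 5111, 6983 and 4922 in Het retina and 5512, 4850 and 7564 in KO retina, with log2 fold changes of −0.22 (SE 0.15, adjusted p = 0.253) and 0.19 (SE 0.18, adjusted p = 0.353). The ratio of Aldoc to Aldoa was lower in rods by 1.07 on the log2 scale, with no overlap of fractions in either genotype (exact permutation p = 0.005, 0.015 after adjustment), and it was −1.24 with the GC trend subtracted. Per kilobase Aldoc made up 6.27% ± 1.02 of aldolase in Het rods, 5.50% ± 0.23 in KO rods, 11.6% ± 2.98 in Het retina and 11.7% ± 1.34 in KO retina. The testis retrogenes Aldoart1 and Aldoart2 were at 7 or less and 20 or less in the rods.

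Enolase differed between the fractions too. Eno1, the ubiquitous form, had values of 17161, 21244 and 19607 in Het rods, 29752, 32042 and 27969 in KO rods, 13378, 21350 and 9129 in Het retina and 15138, 11145 and 19513 in KO retina. Its log2 fold change between rods and retina was 0.74 in Het (SE 0.27, adjusted p = 0.042) and 1.38 in KO (SE 0.20, adjusted p = 0.000314). In Het the call was lost without Het rod replicate 1, 2 or 3 (adjusted p = 0.0593, 0.112 and 0.0957) and kept with the GC trend subtracted (1.11, adjusted p = 1.67e-05), with the replicate block (adjusted p = 0.00958) and without Het retina replicate 2 (adjusted p = 7.12e-05). Eno2, neuron-specific enolase, had values of 2526, 3449 and 3037 in Het rods, 3679, 3847 and 3892 in KO rods, 5444, 7354 and 4021 in Het retina and 5984, 4706 and 6072 in KO retina.

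The log2 fold change of Eno2 was −0.62 in Het (SE 0.22, adjusted p = 0.0372) and −0.17 in KO (SE 0.13, adjusted p = 0.277). The Het call was lost without Het rod replicate 1 or 3 or Het retina replicate 1 or 2, and without the last of these the value was −0.37 (adjusted p = 0.05). The effect was not shown to differ between the genotypes (interaction 0.30, SE 0.27, adjusted p = 0.804). The ratio of Eno2 to Eno1 was lower in rods by 1.45 on the log2 scale, with no overlap of fractions in either genotype (exact permutation p = 0.005, 0.015 after adjustment), and it was −1.68 with the GC trend subtracted. Eno2 made up 10.1% ± 0.44 of enolase per kilobase in Het rods and 8.47% ± 0.61 in KO rods, against 22.3% ± 2.15 and 21.4% ± 2.63 in retina.

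Eno1 shares 99.4% of its coding bases with Eno1b, which is listed apart and had 33.1% to 44.4% of the Eno1 value, so reads of these genes cannot be told apart with certainty and Eno1 is uncertain to that extent. Adding Eno1b to Eno1 moved the log2 ratio per length of Eno2 to Eno1 in rods from −3.30 to −3.76. The retina ratio, −1.80 in Het and −1.89 in KO, moved in the same direction, to −2.29 over both genotypes. The other pairs of isozymes share 68.4% to 76.2% of their coding bases and no stretch of 50 bases. Eno3, the muscle enolase, had 54 to 132 scaled reads in rods and 132 to 394 in retina, and Eno4 had 36 to 65 and 32 to 54.

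Pkm encodes pyruvate kinase M1 and M2 by alternative splicing, and a value per gene does not separate these forms. It had values of 41196, 51089 and 47951 in Het rods, 75186, 82250 and 73066 in KO rods, 25157, 39013 and 16160 in Het retina and 27974, 21730 and 36533 in KO retina. Rods and retina did not overlap, and the log2 fold change was 1.14 in Het (SE 0.28, adjusted p = 0.00669) and 1.82 in KO (SE 0.19, adjusted p = 4.49e-05). Pklr, the liver and red cell pyruvate kinase, was listed at 0 in all rod libraries and at most 2 in the retina.

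**Figure D3:**
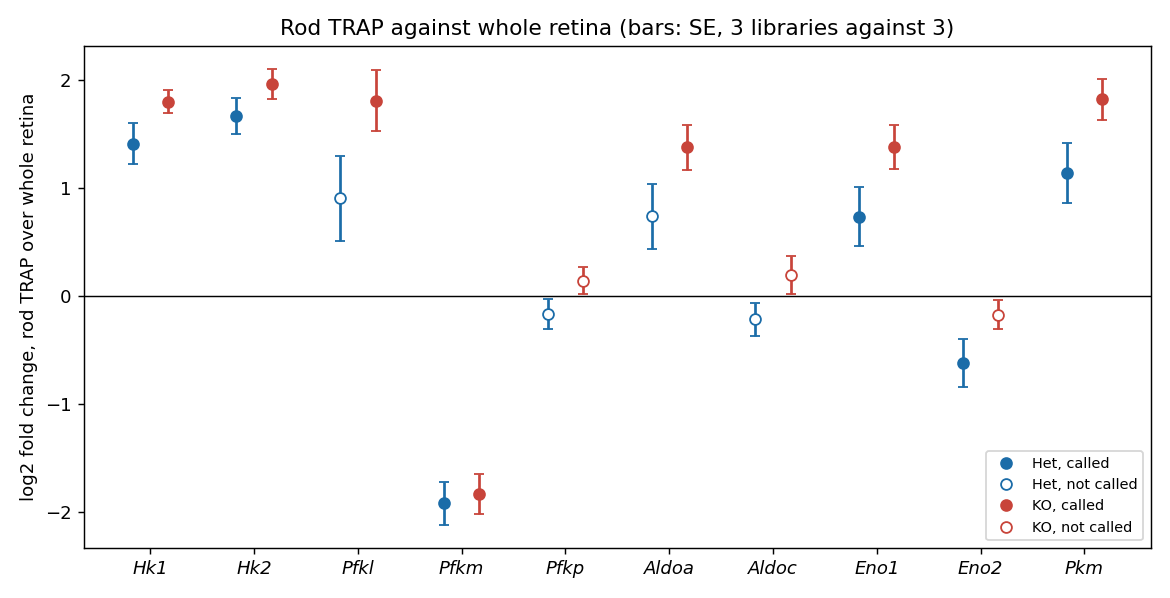
Log2 fold change of the 10 genes between rod TRAP and whole retina (vertical axis) within Het (blue) and within KO (red), with bars for the SE and filled points for genes called. Hk1, Hk2, Eno1 and Pkm were called higher and Pfkm lower in both genotypes, while Pfkp and Aldoc were called in neither.

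In all, 4 of the 10 genes were called higher and 2 lower in Het rods (adjusted p below 0.05 and log2 fold change beyond 0.5), where 21.6% of the 16110 genes tested were higher and 36.8% lower. With the replicate block, 6 were higher and 2 lower, against 23% and 38.2% of all genes. In KO rods 6 were higher and 1 lower, against 25.8% and 36.5% of 16121 genes. With the GC trend subtracted, 6 were higher and 2 lower in Het rods (21.7% and 37.8% of all genes) and 6 higher and 1 lower in KO rods (26.9% and 36.6%). The values this moved most in Het were those of Pkm (from 1.14 to 1.54) and Eno1 (from 0.74 to 1.11), and Eno2 in KO went from −0.17 to −0.35. The median log2 fold change of the members was 0.74 in Het and 1.38 in KO, beside −0.11 and −0.02 over all genes tested. Scaling by library total alone moved the median of all genes to −0.51 in Het and −0.55 in KO, and 1168 genes were then higher and 7399 lower in Het in place of 3475 and 5921. Under that scaling 2 members (Hk1 and Hk2) were called higher and 4 (Pfkm, Eno2, Aldoc and Pfkp) lower in Het. Since each rod TRAP value is a share of the RNA in its library, less RNA per cell and fewer cells of a type in the retina cannot be told apart.

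Of a list of 33 glycolysis genes that includes the members, 28 passed the filter on low values. In Het rods 9 were higher and 8 lower, beside 21.6% and 36.8% of all genes, with a median of 0.37 on the log2 scale. In KO rods 13 were higher and 5 lower, beside 25.8% and 36.5% of all genes, with a median of 0.57. Without the members, 18 genes passed the filter. Of these, 5 were higher and 6 lower in Het (median 0.27), and 7 higher and 4 lower in KO (median 0.49). Steps with 1 main gene varied. Pgk1 (phosphoglycerate kinase) was higher by 1.13 (SE 0.10) and Pgam1 (phosphoglycerate mutase) by 0.88 (SE 0.15), whereas Gapdh (0.76, SE 0.32), Gpi1 (0.33, SE 0.22) and Tpi1 (0.21, SE 0.22) did not pass. In KO, Gapdh (1.62, SE 0.23) and Gpi1 (0.85, SE 0.17) were called higher as well and Tpi1 was at 0.50 (SE 0.14). Of the lactate dehydrogenases, Ldha was higher in Het rods by 1.39 (SE 0.17) and Ldhb lower, at −0.70 (SE 0.18). In KO, Ldha was higher by 1.63 (SE 0.11), and Ldhb, at −0.45 (SE 0.12), was not called. In Het, of the bifunctional enzymes that make and break the phosphofructokinase activator fructose 2,6-bisphosphate, Pfkfb2 was higher by 0.64 (SE 0.12) and Pfkfb3 lower, at −0.99 (SE 0.19). Pfkfb1 (0.42, SE 0.24) and Pfkfb4 (−0.39, SE 0.29) did not pass. With the GC trend subtracted, Gapdh was called higher in Het too (1.02, SE 0.18) and Ldhb lower in KO too (−0.51, SE 0.07). Pfkfb2 then lost its call in Het (0.42, SE 0.11). Of the 18 genes, 5 were then higher and 6 lower in Het, beside 21.7% and 37.8% of all genes. In KO 8 were higher and 6 lower, beside 26.9% and 36.6%.

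The levels per kilobase put Aldoa, Pkm and Eno1 at the top in all 4 groups and Pfkm at the bottom. In Het rods the means were 22224 for Aldoa and 19221 for Pkm, whose ranges overlapped, then 9540 for Eno1, 5824 for Hk1 and 4334 for Hk2, each apart from the next. Aldoc (1455), Pfkl (1166) and Eno2 (1075) followed with overlapping ranges from each to the next, and Pfkp (586) and Pfkm (116) stood apart below. The place of Pfkp rests on its retained-intron length, since with the coding transcript it was at 1227, above Pfkl and Eno2, with a range that overlapped that of Pfkl. In Het retina each neighbour but the step from Eno1 (7212) to Hk1 (2669) overlapped the next one, and Pfkm was at 534.

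The genes whose values over the 12 libraries were most like those of a called member were named by the smallest root mean square difference in log2 level, each gene centred on its own mean, among 17192 genes. They were Rp1l1 (0.079) and Dusp14 (0.089) for Hk1, Egflam (0.095) and Sec14l2 (0.127) for Hk2, and Sh2b3 (0.138) and Cplx3 (0.151) for Pfkm. For the GC-rich members they were P4htm (0.047) and Pigo (0.057) for Eno1 and Gm6560 (0.07) and Clstn1 (0.076) for Pkm, and for Eno2 they were Nfe2l1 (0.073) and Nadk (0.094).

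KO and Het rods were compared next, to ask whether the loss of Shp2 goes with another choice of isozymes. Pfkl, Pkm, Eno1 and Aldoa were called higher in KO rods. The log2 fold change was 0.96 for Pfkl (SE 0.14, adjusted p = 0.00409), 0.80 for Pkm (SE 0.09, adjusted p = 0.0023), 0.72 for Eno1 (SE 0.10, adjusted p = 0.00247) and 0.63 for Aldoa (SE 0.13, adjusted p = 0.0126). In each of the 4 genes every KO rod library was above every Het rod library. None of the 10 genes was called lower.

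Aldoc (0.44, SE 0.08), Eno2 (0.44, SE 0.10) and Hk1 (0.32, SE 0.08) had adjusted p-values of 0.00409, 0.0126 and 0.0131 but did not reach the fold required. The values were 0.24 for Pfkp (SE 0.08), 0.22 for Hk2 (SE 0.08) and 0.03 for Pfkm (SE 0.14). The count of 4 of 10 stands beside 11.2% of the 13055 genes tested that were called higher and 1.91% that were called lower. After scaling, all KO libraries were above all Het libraries for 7 of the 10 members and for 19.5% of all genes. The Aldoa call was lost without KO rod replicate 2 (log2 fold change 0.57, adjusted p = 0.0552) and without Het rod replicate 1 (0.47, adjusted p = 0.0225), and Eno2 was called without Het rod replicate 2 (0.52, adjusted p = 0.00642).

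The 4 genes called are the 4 members with the GC-richest transcripts, and the GC trend separated the KO from the Het rod libraries. Over all genes, the median log2 fold change between KO and Het rods was −0.28 in the 10% of genes lowest in GC content and 0.69 in the 10% highest. With the trend of each library subtracted, Pfkl kept its call at 0.51 (adjusted p = 0.00395), just above the required 0.5, while Pkm (0.30, adjusted p = 0.00574), Eno1 (0.24, adjusted p = 0.0207) and Aldoa (0.19, adjusted p = 0.126) lost theirs. Hk1 went to −0.08 and Pfkm to −0.22, Aldoc was at 0.40 and Pfkp at 0.37, none of them called. The count became 1 of 10 beside 2.1% of all genes higher. A GC trend and an effect of the genotype on these genes cannot be told apart in libraries where the trend follows the genotype.

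In the retina libraries, where the trends of the genotypes overlapped, the members also differed in how far they spread. The highest of the 6 values was 3.56 times the lowest for Pfkl, 2.45 times for Aldoa, 2.41 times for Pkm and 2.34 times for Eno1, and between 1.41 times (Pfkp) and 1.83 times (Eno2) for the other 6 members. In the KO retina library with the trend of 0.90, Pfkl was at 4513, Aldoc at 7564, Hk2 at 8690 and Pfkp at 5438. In the one with −0.63, Pfkl was at 1868, Aldoc at 4850, Hk2 at 7666 and Pfkp at 7096. In the one with 0.01, Pfkl was at 2916, Aldoc at 5512, Hk2 at 9846 and Pfkp at 7531, so that Hk2 and Pfkp were highest there. The log2 level of each member was also correlated (Pearson) with the trend over the 6 retina libraries. The correlation was 0.99 for Pfkl and Eno1 and 0.98 for Aldoa, Pkm and Pfkm. It was 0.95 for Eno2, 0.94 for Aldoc, 0.82 for Hk1, 0.77 for Hk2 and −0.10 for Pfkp. The part of the trend in these values was not tested.

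**Figure D4:**
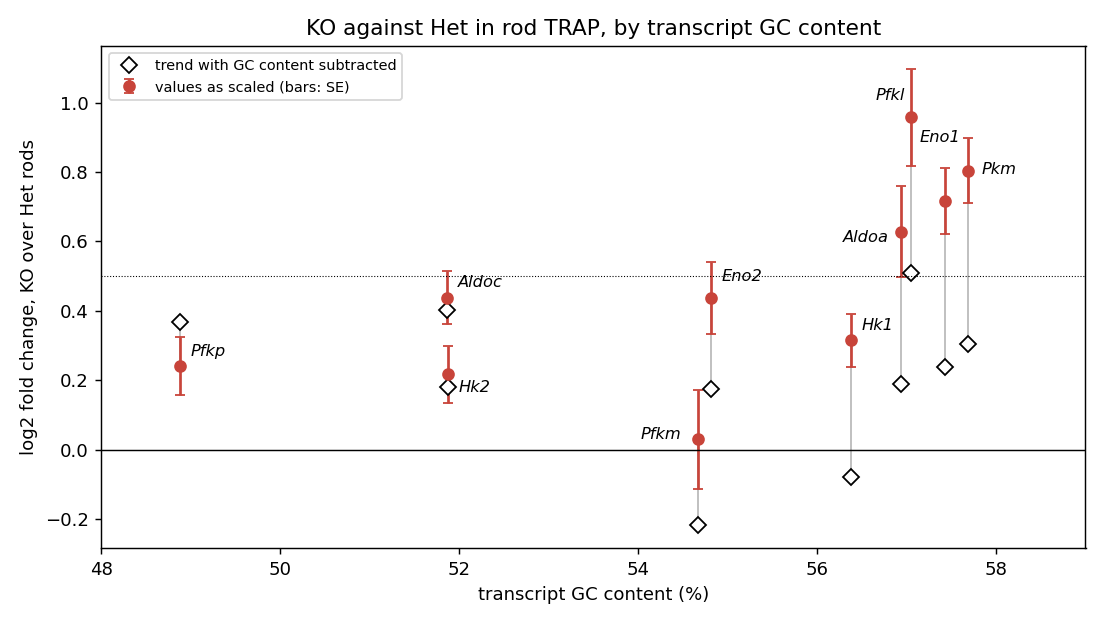
Log2 fold change of the 10 genes between KO and Het rod TRAP (vertical axis) against transcript GC content in percent (horizontal axis), as scaled (red, bars for the SE) and with the GC trend of each library subtracted (open diamonds), with a dotted line at the fold required for a call. The 4 genes above the line lie between 56.9% and 57.7% GC, and only Pfkl, at 0.51, stays above it once the trend is subtracted.

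No member was called between KO and Het whole retina. The log2 fold changes lay between −0.04 (Hk2) and 0.17 (Pkm), with SEs from 0.16 (Pfkp) to 0.49 (Pfkl). Of 16863 genes tested, 0% were called by limma, and 140 had an unadjusted p below 0.05. Lens crystallins and other lens markers made up 0.00086% to 1.44% of the Het retina signal and 0.402% to 4.68% of the KO retina signal, and their part in these values was not tested. The effect of the KO in rods less that in retina was not called for any member (0.76 for Pfkl with SE 0.56, 0.53 for Pkm with SE 0.37, and 0.49 for both Eno1 and Aldoa, with adjusted p-values of 0.803 for each of the 4), nor for any of 17192 genes (0%, with 601 at an unadjusted p below 0.05). The higher values in KO rods were thus not shown to be particular to rods.

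None of the 6 isozyme ratios was shown to differ between genotypes by the test over both fractions. The closest was Pfkl to Pfkm, 0.52 higher in KO on the log2 scale (exact permutation p = 0.065, 0.111 after adjustment), followed by Eno2 to Eno1, at −0.18 (exact permutation p = 0.085, 0.128 after adjustment). Without Het retina replicate 2, the unadjusted exact permutation p was 0.02 for the first and 0.03 for the second, and without KO retina replicate 2 it was 0.035 for the first. In rods alone, the ratio of Pfkl to Pfkm was 0.93 higher in KO, that of Pfkp to Pfkl was −0.72 and that of Eno2 to Eno1 was −0.28. In these 3 ratios the KO and Het rods did not overlap, and each had an exact permutation p of 0.1, the smallest that 3 libraries against 3 can give. With the GC trend subtracted they were 0.74, −0.17 and −0.08 in rods, with exact permutation p-values of 0.1, 0.1 and 0.5, and over both fractions Pfkp to Pfkl went from −0.42 to −0.10 and Eno2 to Eno1 from −0.18 to −0.06. Pfkp to Pfkm went the other way, from 0.21 to 0.57 in rods (exact permutation p = 0.1). None of the 6 ratios was shown to differ in its KO effect between rods and retina (exact permutation p from 0.155 to 0.6, 0.6 after adjustment). The ratio of Hk2 to Hk1 differed between KO and Het by −0.10 in rods and −0.0047 in retina on the log2 scale, with overlapping groups in both, and with the GC trend subtracted the rod value was 0.23, without overlap (exact permutation p = 0.1).

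Of the 23 other genes of the glycolysis list, 15 passed the filter, and 3 were called higher in KO rods and 0 lower, beside 11.2% and 1.91% of all genes. They were Gapdh (0.91, SE 0.13), Eno3 (0.67, SE 0.22) and Pgam2 (0.67, SE 0.22). The median of the 15 was 0.27, beside −0.01 over all genes. With the GC trend subtracted 0 of the 15 were called by limma (7 at an unadjusted p below 0.05), where 2.1% of all genes were higher, and Gapdh was at 0.49 (SE 0.07, adjusted p = 0.00385), Eno3 at 0.44 (SE 0.19) and Pgam2 at 0.23 (SE 0.23). Eno1b, the near copy of Eno1, was called higher as scaled (0.91, SE 0.15) and with the trend subtracted (0.77, SE 0.14, adjusted p = 0.0203). The values of Ldha and Ldhb as scaled were 0.27 and 0.32. In KO retina against Het retina, 0 of the 28 list genes tested, members included, were called by limma.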

How the data were processed

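RNA sequencing values of 12 mouse libraries were used, 3 in each of 4 groups named by genotype and fraction in the sample records. The deposited values are a signal proportional to read counts: the authors' table holds whole numbers whose totals are nearly equal within a fraction, so each library appears to have been multiplied by 1 factor and rounded, a step inferred from the values. RNA was amplified with the SMART-Seq V4 kit. The submitters' processing notes list CASAVA 1.8.2, HISAT2, DESeq2, edgeR and the build GRCm39, with no role or order. There were 0 columns from samples outside the series.

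A count model was not used, because the values are scaled. Genes with a value of about 10 in at least 3 libraries of a comparison and a sum of at least 15 were scaled with TMM factors, raised by a pseudocount of 2 and tested on the log2(value + 2) scale with limma 3.58.1 (trend and robust options) in R 4.3.3, using only the groups compared. Fold changes are on that scale. Adjustment (Benjamini-Hochberg) was over all genes tested, and calls required values past 0.05 for the adjusted p and past 0.5 for the size of the log2 fold change. On simulated data for KO against Het rods (13055 genes, 200 changed by a log2 fold change of 1), 88% were recovered and 1.68% of calls were false. The simulated libraries held no GC trend. These rates therefore do not apply to the real comparison, where that trend separated the genotypes. Isozyme ratios were tested by exact two-sided permutation within genotype or fraction over 400 arrangements. Transcript length and GC content were taken from GENCODE for GRCm38 by gene identifier, for 91.8% of the genes. The replicate numbers come from the sample titles. Same-numbered Het rod and retina libraries deviated together (correlations 0.468, 0.413 and 0.251), whereas in the other comparisons at least 1 same-numbered correlation was below 0.1. The replicate number was therefore tried as a block. Retina libraries of different genotypes correlated as well (0.534 for KO replicate 3 with Het replicate 2). A correlation thus does not show that libraries share an animal.

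The members, the gene lists and the tests were chosen with earlier results of these data known. The genes named are all members, the other isozymes and single-isozyme steps of a textbook glycolysis list, near-identical copies, Ptpn11 and, for members called in Het rods, the 2 most similar genes. Some genes that this rule names are not reported here. Python 3.11.15, NumPy 2.4.6 and matplotlib 3.10.9 were used. Alternatives were another scaling, pseudocount, filter and limma setting, the replicate block, the GC trend, 1 fit over all libraries and each library left out. The longest protein-coding transcript as length, and the ratios of each genotype or fraction alone with the GC trend subtracted, were added after the data were seen.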

Additional observations from a re-analysis of the deposited data

How the results depend on the processing

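In Het rods against Het retina, scaling by library total alone gave 2 members higher and 4 lower in place of 4 and 2, and in KO it gave 2 lower in place of 1. The Het count of lower members was 1 with limma's plain settings and 1 in a fit over all 12 libraries. Leaving out each library gave 3 to 6 higher members and 1 to 2 lower ones in Het. Of all genes, 3124 to 4145 were then higher and 5842 to 6208 lower (16611 to 16897 tested). In KO against Het rods, the 4 higher members became 1 with the GC trend subtracted, 1 with the trend and the replicate block together, and 0 in a fit over all 12 libraries, where the adjusted p of Pfkl, Pkm, Eno1 and Aldoa was 0.234, 0.195, 0.213 and 0.278 and 0 genes of the table were called (3622 at an unadjusted p below 0.05). The cause was not tested. The GC trend left 271 of all genes higher in KO rods in place of 1460. Eno1 in Het rods against retina and Aldoa in KO against Het rods lost their calls with no filter on low values and with limma's plain settings. Leaving out each library gave 3 to 5 members higher in KO rods, where 803 to 1583 of all genes were higher (13320 to 13456 tested). Over both fractions, 0 of the 6 isozyme ratios passed a p of 0.05 between KO and Het, 1 did with the GC trend subtracted (Pfkp to Pfkm, 0.30, exact permutation p = 0.045), and between 0 and 2 did without each library in turn. Of the 6 ratios between rods and retina, 5 to 6 passed an unadjusted p of 0.05 with both genotypes together, the exception being Hk2 to Hk1. The replicate block gave the calls of Pfkl and Aldoa in Het rods, for 6 higher members in place of 4. No other call of a member changed with it. Sign flips of same-numbered differences gave an exact permutation p of 0.03125, the smallest possible, for all 6 rod to retina ratios. These flips paired the KO libraries too, whose same-numbered correlations were 0.334, −0.014 and 0.182, so they rest on a pairing that was not shown. In KO against Het rods the block moved the count over all genes from 1460 higher and 250 lower to 1589 and 296, and the same-numbered libraries correlated at 0.183, 0.034 and 0.026. Dividing by all exons reversed the order of Hk2 and Hk1 per length, to 0.41 in rods and 0.20 in retina, and of Pfkl and Pfkm in retina, to −0.085.

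With 3 libraries against 3, no exact p below 0.1 can be reached, and the depth of 1 retina library could not be estimated.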
